A study of Mus musculus with 8 samples.

Results

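The genes described here are 9 calcium-binding protein genes of neurons, taken by name from the 27998 genes of the matrix: the cytosolic buffers Calb1 (calbindin), Calb2 (calretinin) and Pvalb (parvalbumin), the neuronal calcium sensors Hpca (hippocalcin), Hpcal1 (hippocalcin-like 1) and Ncald (neurocalcin delta), the calmodulin genes Calm2 and Calm3, and Nrgn (neurogranin). Of these, 8 had UMIs in the neurons compared below and Pvalb had none. Cortices of E15.5 mouse embryos of the strain Tg(Ebf2-EGFP)FB58Gsat, a transgenic line in which Ebf2 regulatory sequence drives EGFP, were dissociated, Ebf2-EGFP+ cells were collected by FACS, and 10x Chromium libraries were prepared from them. No treatment, second genotype or EGFP-negative control was among the samples. The labels list 8 samples, all of 1 group, from pooled embryos, and 1 matrix holds all their cells with no map from barcode to sample. There were thus no replicates, and no test between groups of cells was made: the 95% intervals given throughout reflect counting error alone, and the spread between embryos is not in them. Barcodes of the pool are not replicates.

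Calcium-binding proteins with the EF-hand fold shape calcium signals in neurons. Buffers such as calbindin, calretinin and parvalbumin take up free calcium in the cytosol and are used across the brain as markers of neuron classes, calretinin and calbindin among them for Cajal-Retzius (CR) neurons, the Reelin-secreting neurons of layer 1. Sensors such as hippocalcin and calmodulin change shape when they bind calcium and then act on membranes, channels and enzymes, while neurogranin has no EF-hand of its own and holds calmodulin when calcium is low.

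The members lie on 7 chromosomes of GRCm38, the build that the submitters' notes name as mm10. Calb1 (ENSMUSG00000028222) is at chr4:15881264-15908064 on the plus strand, Calb2 (ENSMUSG00000003657) at chr8:110137502-110168210 on the minus strand and Pvalb (ENSMUSG00000005716) at chr15:78191114-78206400 on the minus strand. Hpca (ENSMUSG00000028785) is at chr4:129111570-129122036 on the minus strand, Hpcal1 (ENSMUSG00000071379) at chr12:17690856-17791933 on the plus strand and Ncald (ENSMUSG00000051359) at chr15:37366175-37792570 on the minus strand. Calm2 (ENSMUSG00000036438) is at chr17:87433412-87446935, Calm3 (ENSMUSG00000019370) at chr7:16915379-16924114 and Nrgn (ENSMUSG00000053310) at chr9:37544492-37552904, all on the minus strand. All 9 are protein-coding in GENCODE M21.

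The members hold paralogs whose reads could in principle be confused, so their coding sequences are shown. Calm2 and Calm3 encode the same residue at 149 of 149 codons, and their coding sequences of 450 bases share 372 bases (82.7%). The opening 90 coding bases of each, from GENCODE transcripts ENSMUST00000040440.6 and ENSMUST00000019514.9, are printed with capitals at the 15 positions where they differ.
Calm2: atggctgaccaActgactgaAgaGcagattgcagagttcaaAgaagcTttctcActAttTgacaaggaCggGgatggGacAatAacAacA
Calm3: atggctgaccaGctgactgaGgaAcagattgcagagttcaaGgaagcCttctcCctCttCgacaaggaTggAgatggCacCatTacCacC

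The 3 calcium sensors are also close relatives, and their levels followed different patterns over the groups. Their coding sequences all have 582 bases. Hpca and Hpcal1 share 501 of these bases (86.1%) and encode the same residue at 181 of 193 codons, Hpcal1 and Ncald share 467 bases, and Hpca and Ncald share 458. The opening 90 coding bases (ENSMUST00000116444.9, ENSMUST00000071858.4 and ENSMUST00000090150.10) carry capitals at the 24 positions where the 3 genes are not all alike.
Hpca: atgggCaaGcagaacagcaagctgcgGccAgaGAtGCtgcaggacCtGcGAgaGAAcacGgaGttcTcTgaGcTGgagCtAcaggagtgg
Hpcal1: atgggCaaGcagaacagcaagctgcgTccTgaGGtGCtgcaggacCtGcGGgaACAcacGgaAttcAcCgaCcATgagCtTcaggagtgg
Ncald: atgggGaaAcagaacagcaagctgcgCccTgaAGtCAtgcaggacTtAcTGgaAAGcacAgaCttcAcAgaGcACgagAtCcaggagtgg
No run of 50 bases was shared between Calm2 and Calm3 or within the trio of sensors, over the whole transcripts or over the last 500 bases, which 3′ libraries mostly read.

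After filtering, 2931 of 3000 barcodes were kept. Reln-high barcodes, with at least 5 Reln UMIs per 10000, numbered 459, and Neurod1-high barcodes, with at least 5 Neurod1 UMIs per 10000, numbered 124. A further 11 barcodes passed both cuts and are given apart, 12 were rich in radial glia or cell-cycle genes, 3 held markers of other cell types, and the remaining 2322 were the other neurons. The 12 progenitor-rich barcodes held 16110 haemoglobin UMIs, 99.96% of them in 1 barcode. Levels of this group without that barcode were not computed. The barcodes just inside and outside the cuts lay at 5.22 and 4.87 for Reln and at 5.0004 and 4.996 for Neurod1. Reln chose the group, and the other 7 CR markers of the list were higher in Reln-high barcodes than in the other neurons, with Trp73 at 142 against 5.52 CPM and Ndnf at 170.0 against 3.14 CPM (CPM, summed UMIs of the gene per 1000000 UMIs of the group). In Neurod1-high barcodes Sstr2 was 167 against 25.0015 CPM, but Eomes, the marker of intermediate progenitors, was only 4.46 against 3.82 CPM and Neurog2 13.0 against 6.98 CPM. Depth differed: the median total was 21308 UMIs in Reln-high barcodes, 18698 in Neurod1-high barcodes and 15155 in the other neurons, and 38.8%, 17.7% and 9.47% of them were above 25000 UMIs. Barcodes with both Xist and Y-linked UMIs made up 13.1%, 4.03% and 2.97%. The part of mixed droplets in the results was not tested, but the values without such barcodes are given where they move a result.

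Against the other neurons, 2 of the 8 detected members were at least 2-fold higher in Reln-high barcodes, Calb2 and Hpca, where 7.79% of 11237 genes with at least 100 UMIs were. A further 2 were at least 2-fold lower, Ncald and Nrgn, where 5.53% of genes were. In Neurod1-high barcodes Calb2 and Hpcal1 were at least 2-fold higher, against 4.58% of genes, and 0 members were at least 2-fold lower, against 6.74%. Between the groups themselves, Reln-high over Neurod1-high, Calb1 was at least 2-fold higher (10.5% of genes) and Hpcal1 and Ncald at least 2-fold lower (5.52%). The median log2 ratio over the members was 0.24 in Reln-high and 0.37 in Neurod1-high barcodes over the other neurons, where the median of all genes was 0.12 and 0.01. With 8 members, 1 gene more or fewer moves such a share widely.

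**Figure D1:**
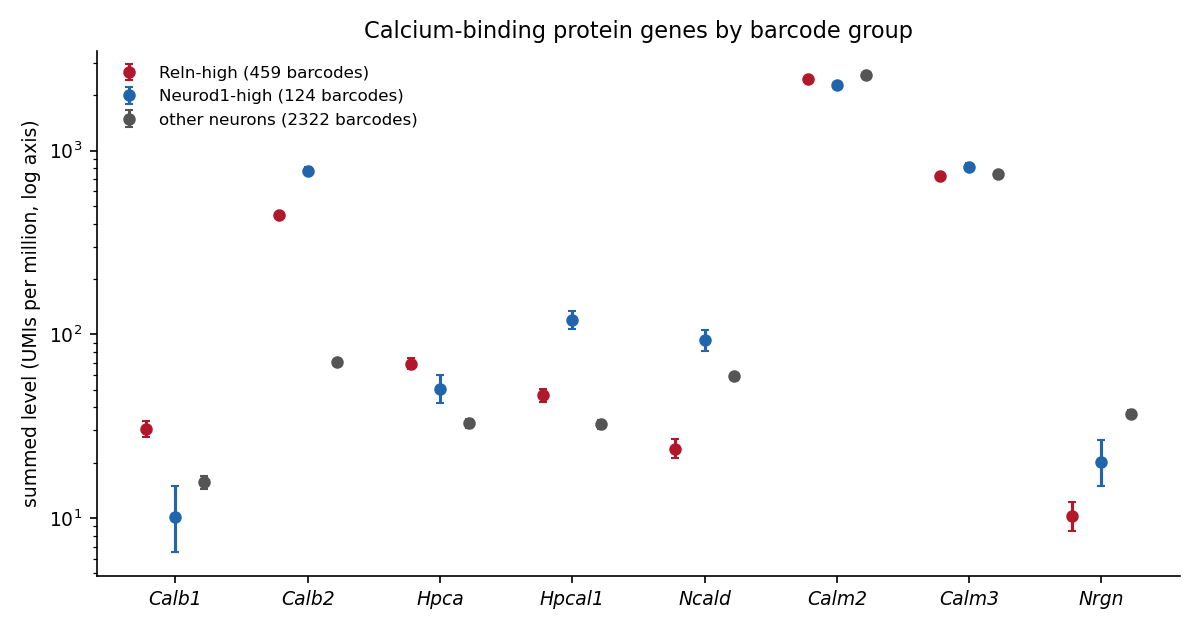
Summed level of the 8 detected members (CPM, log axis) in Reln-high, Neurod1-high and other neurons. Points are sums over all barcodes of a group and bars are exact 95% Poisson intervals. Calb2 stands at 443 and 776 in the first pair of groups and at 70.5 in the other neurons, while Calm2 and Calm3 each stand at similar levels in the 3 groups.

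Calb2, the gene of calretinin, separated both Reln-high and Neurod1-high barcodes from the other neurons. Its level was 443 CPM (431 to 456) in Reln-high barcodes, 776 (742 to 812) in Neurod1-high barcodes and 70.5 (67.9 to 73.2) in the other neurons. The log2 ratio over the other neurons was 2.65 (2.59 to 2.72) for Reln-high and 3.46 (3.38 to 3.54) for Neurod1-high barcodes, ranks 188 and 16 of 11237 genes. In these sums Neurod1-high barcodes had 1.75-fold more Calb2 than Reln-high barcodes, but the order turned with the grouping and in the deepest barcodes. Calb2 was 490.1 CPM in the CR-like and 446 in the Neurod1-led cluster described below. Of the Neurod1-led cluster 42.4% were Neurod1-high and 46.4% were above 25000 UMIs. Among barcodes above 25000 UMIs Calb2 was 390.0 (375 to 405) in 178 Reln-high and 223 (190 to 260) in 22 Neurod1-high barcodes. In those up to 25000 UMIs it was 520 (500 to 541) in 281 Reln-high and 1005 (958 to 1053) in 102 Neurod1-high barcodes.

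Within each group the Calb2 level was spread widely. In Reln-high barcodes it ran from 0 through a median of 2.88 to 38.6 UMIs per 10000, and in Neurod1-high barcodes from 0 through 6.08 to 42.6. In the other neurons the median was 0 and the highest barcode reached 95.7, above every barcode of the other groups. Thinned to 10000 UMIs, so that depth did not differ, 76.9% of Reln-high (72.8 to 80.7%), 87.1% of Neurod1-high (79.9 to 92.4%) and 24.5% of other neurons (22.8 to 26.3%) held a Calb2 UMI. Free RNA can give a UMI to any droplet. In the 12 progenitor-rich barcodes, with a median of 14542 UMIs, 5 held a Calb2 UMI (41.7%, 15.2 to 72.3%) at a level of 36.0 CPM. These barcodes are too few for a firm background. In the 2 deep-layer projection neuron-like clusters described below, of 715 and 695 barcodes, the thinned share was 18.2% (15.4 to 21.2%) and 18.1% (15.3 to 21.2%).

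Not every Reln-high barcode carried Calb2. At full depth 66 of 459 (14.4%) held no Calb2 UMI, at a median of 14356 UMIs, and 159 (34.6%) held at least 5 per 10000. Of the CR markers, Trp73 was 143 CPM (122 to 166) and Lhx5 191 (166 to 218) in the barcodes without Calb2, and Nhlh2, a transcription factor of these cells, was 1036 (978 to 1097). In the Calb2-rich barcodes these were 159, 221 and 1006. The CR markers Reln and Ndnf were lower in the barcodes without Calb2. Reln was 1521 (1450 to 1594) without Calb2 and 2203 (2157 to 2250) in the Calb2-rich barcodes, and Ndnf, a secreted protein of layer 1 neurons, was 68.2 (53.9 to 85.2) and 186 (173 to 200). Calb1 was 15.7 (9.33 to 24.9) and 44.3 (38.0 to 51.4), and Hpca was 33.2 (23.5 to 45.6) and 77.2 (68.7 to 86.3). Over the 459 barcodes, thinned, Calb2 and Reln had a Pearson r of 0.23, a weak relation in sparse counts.

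Among Neurod1-high barcodes, Calb2 went with Neurod1 and Hpcal1. The 74 barcodes with at least 5 Calb2 UMIs per 10000 (59.7%) had Neurod1 at 1193 CPM (1134 to 1254), against 800 (745 to 857) in the 39 barcodes with less Calb2. Hpcal1 was 173 (151 to 197) and 61.5 (47.0 to 79.0) in them. Over the 124 barcodes Pearson's r of Calb2 was 0.52 with Neurod1 and 0.34 with Hpcal1, and Neurod1 chose these barcodes. Depth moved with this split: barcodes above 25000 UMIs, 22 of the 124, had Calb2 at 223 CPM (190 to 260), and the other 102 had it at 1005 (958 to 1053).

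Calb1, the gene of calbindin, was found in a larger share of Reln-high barcodes than of the other neurons, while its highest levels were in a few other neurons. Summed, it was 30.5 CPM (27.5 to 33.9) in Reln-high barcodes, 15.7 (14.5 to 16.9) in the other neurons and 10.1 (6.55 to 14.95) in Neurod1-high barcodes. The log2 ratio of Reln-high over other neurons was 0.96 (0.77 to 1.15), just under 2-fold, and 1.09 without barcodes with both Xist and Y-linked UMIs. That of Reln-high over Neurod1-high barcodes was 1.59 (1.01 to 2.24). After thinning, 23.1% of Reln-high barcodes (19.3 to 27.2%) held a Calb1 UMI, against 6.12% of other neurons (5.18 to 7.17%) and 5.65% of Neurod1-high barcodes (2.2995 to 11.3%). In the 12 progenitor-rich barcodes 1 did (8.33%, 0.21 to 38.5%), too few for a firm background. Of the 715 and 695 barcodes in the 2 deep-layer projection neuron-like clusters described below, 2.66% (1.61 to 4.12%) and 5.47% (3.90 to 7.43%) did.

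The highest Calb1 level of a Reln-high barcode was 3.85 UMIs per 10000, while 13 other neurons (0.56%, 0.30 to 0.96%) held 5 or more, up to 15.2. A count of 0 in 459 Reln-high barcodes has an interval of up to 0.80%, so the intervals of these shares overlap. At 2 or more the shares were 2.18% (1.05 to 3.97%) of Reln-high barcodes and 1.25% (0.84 to 1.79%) of other neurons. These 13 barcodes held 42.6% of the Calb1 UMIs of the other neurons, and without them the level of the group was 9.06 CPM (8.15 to 10.1). Depth again moved with the values. The other neurons had Calb1 at 35.3 (31.3 to 39.8) in barcodes above 25000 UMIs and at 10.97 (9.86 to 12.2) in the rest, whereas Reln-high barcodes had 29.3 (25.4 to 33.6) and 32.4 (27.5 to 37.9).

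**Figure D2:**
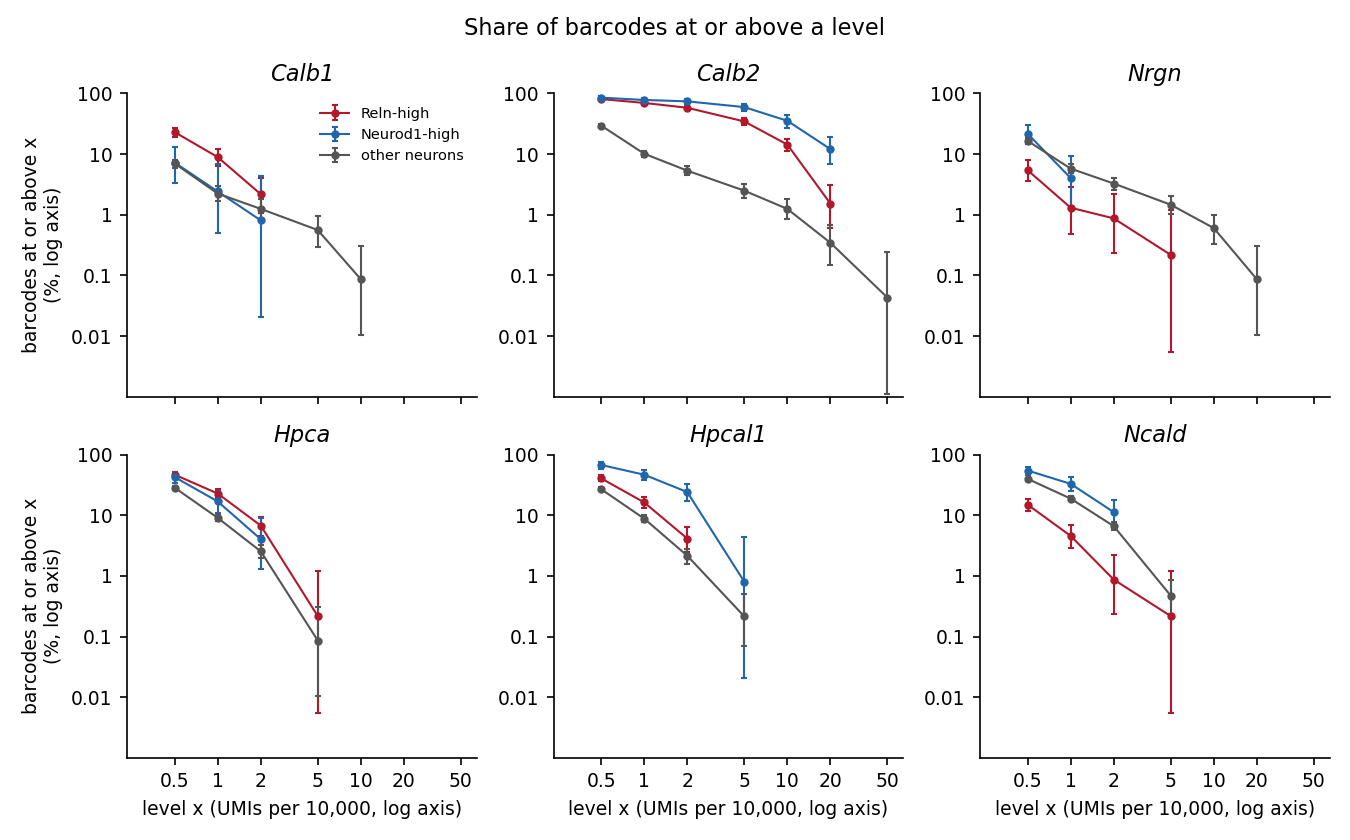
Percent of barcodes (log axis) with at least a given level of a member (UMIs per 10000, log axis) in Reln-high, Neurod1-high and other neurons; bars are exact 95% binomial intervals and shares of 0 are not drawn. For Calb1 and Nrgn the curve of the other neurons, the largest group, runs on to levels where few or no barcodes of the other groups are found. For Calb2 it does so by 1 barcode at 50 or more, and is the lowest curve at the levels up to 20.

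The sets of rare other neurons with high levels of a member shared few barcodes, but the sets were small. Of the 2322 other neurons, 13 had at least 5 UMIs per 10000 of Calb1, 58 of Calb2, 34 of Nrgn and 11 of Ncald. Only 1 barcode was shared between the Calb1 and Calb2 sets, 0 between Nrgn and either of them, and 2 between Nrgn and Ncald. The 58 Calb2-high barcodes (2.498%) held 49.3% of the Calb2 UMIs of the group, at a median of 10.04 UMIs per 10000. Without them the level was 36.8 CPM (35.0 to 38.8). The 12 progenitor-rich barcodes had 36.0 (14.5 to 74.2) from only 7 UMIs, and the deep-layer projection neuron-like clusters described below had 22.9 and 22.3. The 34 Nrgn-high barcodes (1.46%) held 46.9% of the Nrgn UMIs. The 11 Ncald-high barcodes held only 4.8003% of the Ncald UMIs.

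The leading genes of each set were taken from those detected in at least 50% of its barcodes, and were chosen after their values were seen. The Calb1-high barcodes were led by Nxph1 (neurexophilin 1), Car10 and Snhg11, with Snhg11 at 519 CPM against 66.9 in the remaining other neurons. The Calb2-high barcodes were led by Zbtb20, a zinc finger transcription factor, at 741 against 99.5, and included Lhx9 at 56.7 against 11.6. Of these 58 barcodes 30 fell in the Neurod1-led cluster described below, which itself had Zbtb20 among its leading genes. The Nrgn-high barcodes were led by Syn2 (synapsin II) at 189 against 26.4. Snhg11 came next in them, at 393 against 65.2, so the Calb1-high and Nrgn-high sets had this leading gene in common. Sncb (beta-synuclein) was at 965 against 206 in the Nrgn-high barcodes. The Ncald-high barcodes were led by Fam163b, at 91.2 against 11.9. Markers of GABAergic interneurons, which in the adult cortex carry Calb1 or Calb2, were summed over 9 listed genes, which gave 14.9 CPM in Calb1-high and 18.9 in Calb2-high barcodes, against 109 and 111 in the rest. Over all other neurons most of this sum was Npy (87.2 CPM) and Sst (15.3 CPM). Gad1 and Gad2, the defining genes, were at 0.90 and 0.55 CPM over all other neurons, and their levels within the Calb1-high and Calb2-high sets were not computed.

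Calb1 and Calb2 were found together in a larger share of Reln-high barcodes than of Neurod1-high barcodes or other neurons. Thinned to 10000 UMIs, 89 of 459 Reln-high barcodes (19.4%, 15.9 to 23.3%) held UMIs of both, against 60 of 2322 other neurons (2.58%, 1.98 to 3.31%) and 5 of 124 Neurod1-high barcodes (4.03%, 1.32 to 9.16%). Of the 12 progenitor-rich barcodes 1 held both (8.33%, 0.21 to 38.5%), too few for a firm background. In the deep-layer projection neuron-like clusters of 715 and 695 barcodes the share was 0.56% (0.15 to 1.43%) and 1.87% (0.9996 to 3.18%). In Neurod1-high barcodes Calb2 was thus common and Calb1 rare: 103 barcodes held Calb2 alone. Of the 106 Reln-high barcodes with Calb1, 89 also held Calb2 (84.0%, 75.6 to 90.4%), whereas of the 353 with Calb2 25.2% (20.8 to 30.1%) held Calb1.

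The gap in Calb1 share between barcodes with and without Calb2 was larger at the deeper settings in Reln-high barcodes, but a change with depth was not tested. In Reln-high barcodes Calb1 was found in 25.2% of those with and 16.0% (9.63 to 24.4%) of those without Calb2, a difference of 9.17 percentage points with an interval of -0.32 to 17.2. Thinned to 15000 UMIs, which 356 of the 459 reached, Calb1 was found in 35.8% (30.5 to 41.4%) of 310 barcodes with and 15.2% (6.34 to 28.9%) of 46 without Calb2, a difference of 20.6 points. At full depth the difference was 24.3 points, but depth itself then varies between barcodes. In the other neurons the shares were 10.5% (8.14 to 13.4%) and 4.68% (3.74 to 5.77%), a difference of 5.87 points (3.23 to 8.84). In Neurod1-high barcodes only 16 were without Calb2, and the difference of -7.87 points had an interval of -33.9 to 4.54.

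**Figure D3:**
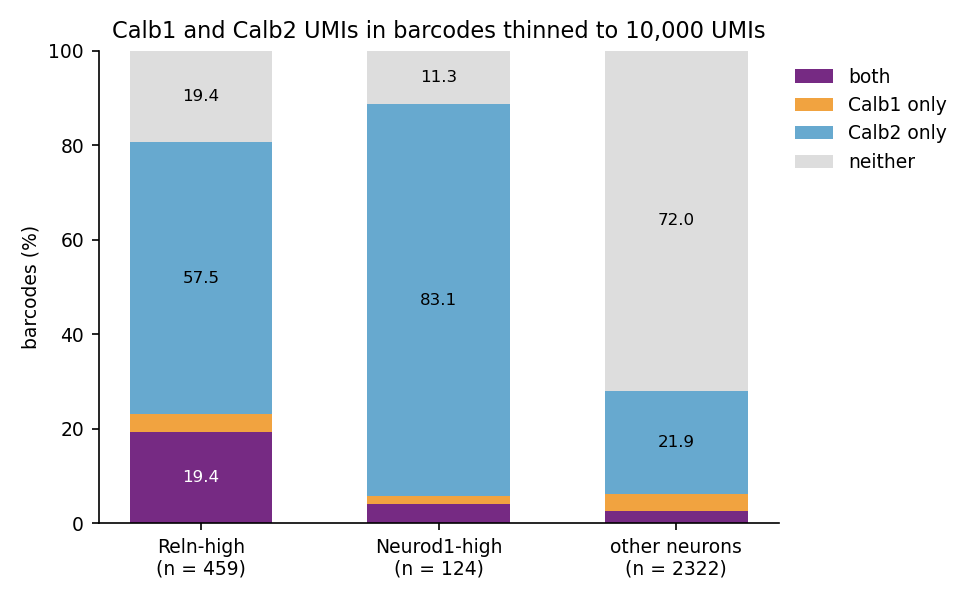
Percent of barcodes with UMIs of both Calb1 and Calb2, of 1 of them or of neither, after thinning every barcode to 10000 UMIs. Both were found in 19.4% of Reln-high barcodes, 4.03% of Neurod1-high barcodes and 2.58% of other neurons, and neither in 19.4%, 11.3% and 72.0%.

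The 4 classes of Reln-high barcodes differed in other genes too. Those with both genes had Reln at 2240.4 CPM (2143 to 2341) and those with neither at 1562 (1481 to 1646), with Calb1 alone at 1700 (1510 to 1908) in 17 barcodes and Calb2 alone at 1978 (1925 to 2033) in 264. Hpca was 78.7 (61.3 to 99.4) with both and 30.3 (19.99 to 44.1) with neither. Median totals were 23490 and 17201 UMIs in these classes, so that they differed in depth before thinning. Calm2 and Calm3 differed little, at 2435 (2333 to 2540) and 702 (648 to 760) with both and 2283 (2185 to 2385) and 701 (647 to 758) with neither.

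Pvalb, whose protein marks fast-spiking interneurons of the mature cortex, was not detected in any of the 3 groups. Its 1 UMI among all 2931 kept barcodes was in a barcode with markers of oligodendrocyte precursors. A count of 0 allows a level of up to 0.075 CPM in the other neurons, 0.26 CPM in Reln-high and 1.22 CPM in Neurod1-high barcodes, taking 3 counts as the limit. No fold was computed for it.

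The calcium sensors followed 3 different patterns. Hpca was highest in Reln-high barcodes, at 69.2 CPM (64.5 to 74.1), against 50.6 (42.2 to 60.3) in Neurod1-high barcodes and 32.9 (31.1 to 34.7) in the other neurons. Its log2 ratio over the other neurons was 1.07 (0.95 to 1.20) in Reln-high barcodes, and 0.83 when barcodes above 25000 UMIs were left out, which ends its place among the 2-fold higher members. After thinning 37.9% of Reln-high barcodes (33.5 to 42.5%), 35.5% of Neurod1-high barcodes (27.1 to 44.6%) and 23.3% of the other neurons (21.6 to 25.1%) held an Hpca UMI, with 2 of 12 progenitor-rich barcodes (16.7%, 2.09 to 48.4%).

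Hpcal1 was highest in Neurod1-high barcodes, at 120 CPM (106 to 134), against 46.5 (42.7 to 50.6) in Reln-high barcodes and 32.5 (30.7 to 34.3) in the other neurons. The log2 ratio of Neurod1-high over other neurons was 1.88 (1.69 to 2.06), rank 142 of 11237 genes, and that of Reln-high over other neurons 0.52 (0.37 to 0.67). An Hpcal1 UMI was found after thinning in 63.7% of Neurod1-high barcodes (54.6 to 72.2%), 37.3% of Reln-high barcodes (32.8 to 41.9%) and 22.5% of the other neurons (20.8 to 24.2%). The highest barcodes of the 3 groups held 6.13, 4.05 and 7.25 UMIs per 10000. The groups overlapped up to the highest Reln-high barcode, and 1 Neurod1-high barcode and 5 other neurons held 5 UMIs per 10000 or more.

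Ncald was low in Reln-high barcodes. It was 23.9 CPM (21.2 to 26.9) there, 59.1 (56.7 to 61.5) in the other neurons and 93.2 (81.5 to 106) in Neurod1-high barcodes, with log2 ratios over the other neurons of -1.31 (-1.49 to -1.13) and 0.66 (0.46 to 0.85). After thinning 11.5% of Reln-high barcodes (8.77 to 14.8%) held an Ncald UMI, 32.7% of other neurons (30.8 to 34.7%) and 51.6% of Neurod1-high barcodes (42.5 to 60.7%). The share of the 12 progenitor-rich barcodes was 25% (5.49 to 57.2%), which sets no firm background. What Ncald there was in Reln-high barcodes lay mostly in the deepest ones: 226 of 281 UMIs were in the 178 barcodes above 25000 UMIs, at 32.6 CPM (28.5 to 37.1), and the other 281 barcodes had 11.4 (8.61 to 14.9). Without the deep barcodes the log2 ratio was -2.27, and without those with both Xist and Y-linked UMIs it was -1.72. With the cut on Reln and Neurod1 at 2 UMIs per 10000 it was -0.91, which ends its place among the 2-fold lower members. In 1 Reln-high barcode 23 Ncald UMIs were counted, 8.19% of the group.

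The calmodulin genes hardly differed. Calm2 was 2445 CPM (2417 to 2474) in Reln-high, 2283 (2224 to 2343) in Neurod1-high and 2573 (2557 to 2589) in other neurons, and was detected in every barcode. Its log2 ratios over the other neurons were -0.07 and -0.17. Calm3 was 724 (709 to 739), 815 (780 to 852) and 749 (741 to 758), with log2 ratios of -0.05 (-0.08 to -0.01) and 0.12 (0.06 to 0.19). These intervals exclude 0 because the counts are large, and all 4 ratios are smaller than 0.2. Medians per barcode of Calm2 were 23.7, 22.7 and 25.1 UMIs per 10000, and the quartiles of the other neurons were 20.5 and 30.4. In the 12 progenitor-rich barcodes, with the haemoglobin-rich barcode among them, Calm3 was 391 (308 to 489) and Calm2 1934 (1743 to 2140). Their Calm2 median was 22.0 UMIs per 10000 and their lowest barcode had 1.59.

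Nrgn was the member furthest below the other neurons in Reln-high barcodes. It was 10.2 CPM (8.47 to 12.2) there, 20.3 (15.03 to 26.7) in Neurod1-high barcodes and 37.0 (35.1 to 38.9) in the other neurons. The log2 ratio of Reln-high over other neurons was -1.86 (-2.14 to -1.59), rank 11152 of 11237 genes counted from the highest, and that of Neurod1-high over other neurons -0.87 (-1.31 to -0.46). A single Reln-high barcode held 23 of the 120 Nrgn UMIs, 19.2% of the group, and without the highest barcode of each group the log2 ratio was -2.09. Few barcodes carried the gene in any group: 5.23% of Reln-high barcodes (3.38 to 7.68%), 17.7% of Neurod1-high barcodes (11.5 to 25.6%) and 13.5% of other neurons (12.2 to 14.98%) after thinning, beside 1 of 12 progenitor-rich barcodes (8.33%). The ratio with the cut on Reln and Neurod1 set at 2 UMIs per 10000 was -0.40, under 2-fold.

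Bands of the Reln level showed whether the members differed across the cut or within it. Calb2 was 56.0 CPM (51.9 to 60.3) in the 815 barcodes without Reln and 89.3 (83.9 to 94.98) in the 636 barcodes at 1 to under 5 Reln UMIs per 10000. It was 359 (328 to 392) in the 49 barcodes at 5 to under 10, 340.4 (325 to 357) in the 201 at 10 to under 20, and 563 (543 to 584) in the 209 at 20 and over. The largest step of Calb2 between neighbouring bands was thus at the cut, with another at the top. Hpca had overlapping intervals below the cut, at 34.4 (31.2 to 37.8), 32.8 and 31.2 (28.1 to 34.7), and was 41.5 (31.3 to 53.8), 52.9 (46.7 to 59.6) and 91.9 (83.9 to 100.4) in the 3 bands above it.

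Ncald and Nrgn ran the other way among Reln-high barcodes. Ncald was 44.4 (33.9 to 57.2), 32.0 (27.3 to 37.3) and 10.9 (8.29 to 14.1) CPM in the bands of 5 to under 10, 10 to under 20 and 20 and over, and Nrgn was 17.8 (11.4 to 26.4), 14.0 (10.9 to 17.6) and 4.71 (3.05 to 6.95). Below the cut Nrgn was higher in barcodes with some Reln: 24.6 (22.0 to 27.6) at 0 and 46.6 (42.8 to 50.8) at 1 to under 5. Hpcal1 differed little above the cut, at 45.9, 47.4 and 45.9. Calb1 was 17.8 (11.4 to 26.4), 26.9 (22.6 to 31.8) and 37.3 (32.3 to 42.8), with 12.2%, 20.9% and 27.8% of barcodes holding a UMI after thinning. Median totals in these 3 bands were 20725, 20776 and 21477 UMIs, so depth hardly varied among them.

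**Figure D4:**
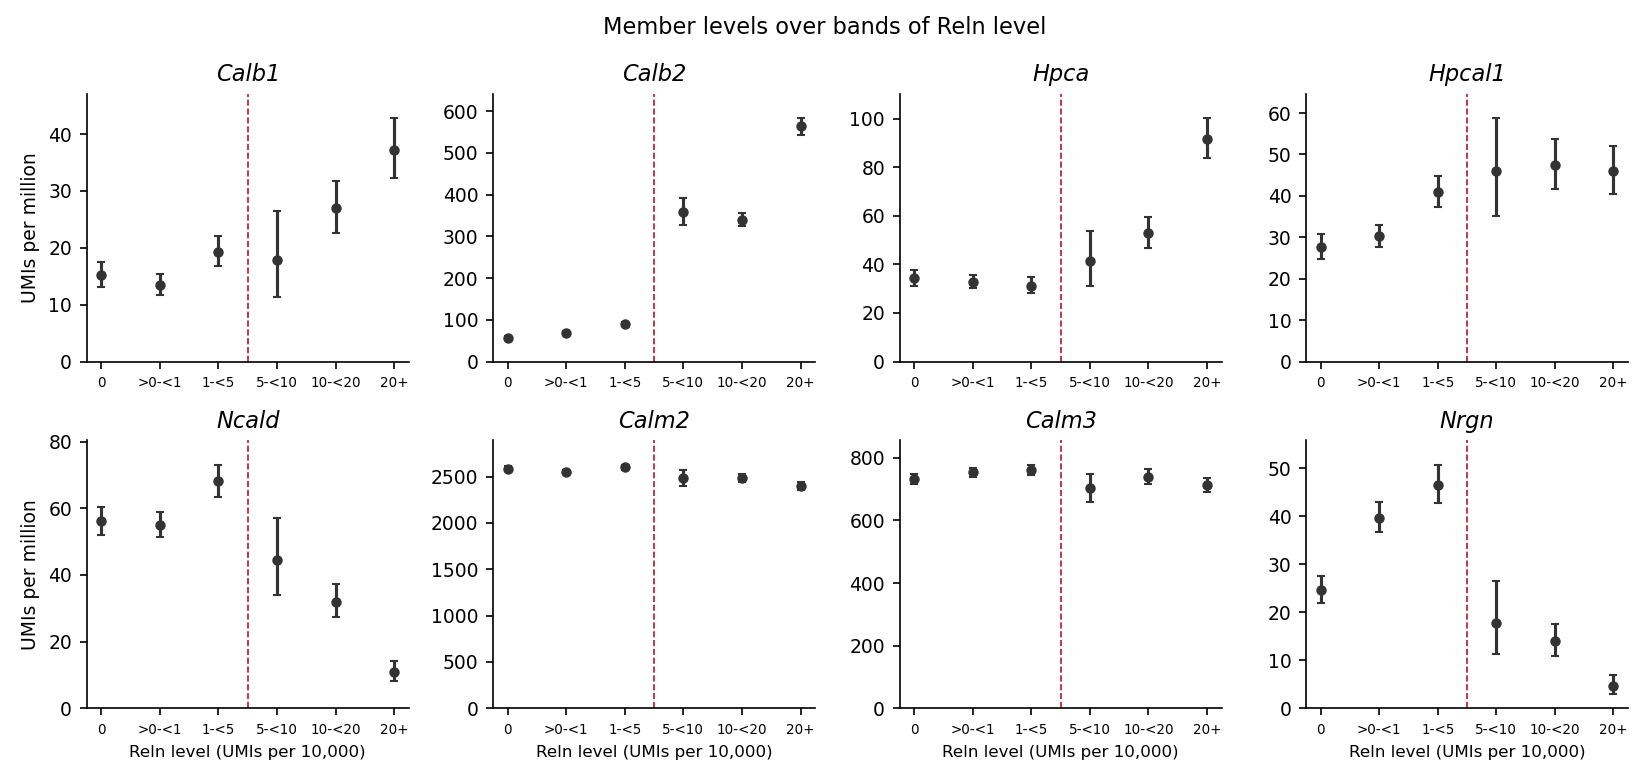
Level of the 8 detected members (CPM) in barcodes banded by their Reln level (UMIs per 10000), Neurod1-high barcodes left out. Points are sums over the barcodes of a band, bars exact 95% Poisson intervals, and the dashed line marks the cut of Reln-high barcodes. Calb2, Hpca and Calb1 are highest in the top band and Ncald and Nrgn lowest there, while Calm2 and Calm3 lie nearly flat.

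Bands of the Neurod1 level gave another picture. Calb2 was 53.0 CPM (50.3 to 55.8) in 1726 barcodes without Neurod1, 61.5 in 374 barcodes above 0 to under 1, 175 (164 to 187) in 222 barcodes at 1 to under 5, 456 (424 to 491) in 68 at 5 to under 10 and 1319 (1245 to 1395) in 56 at 10 and over. Calb2 was thus higher already in the band just below the cut. Hpcal1 followed the same order above it, at 89.5 (75.2 to 106) and 170.5 (145 to 199), whereas Hpca was 59.2 (47.8 to 72.6) and 36.1 (24.8 to 50.6). The 11 barcodes over both cuts, with a median of 34616 UMIs, had Calb2 at 600.5 (525 to 684), Hpca at 71.1 (46.9 to 103) and Calb1 at 10.5 (2.87 to 27.0).

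The same members were then followed over 8 K-means clusters made without the members, Reln and Neurod1. The CR-like cluster of 393 barcodes, where 8 of 8 CR markers were 2-fold above the rest, had Calb2 at 490.1 CPM (476 to 504), the highest of all clusters. A cluster of 250 barcodes led by Neurod1, which matched no fixed class, had 446 (431 to 462) and held 106 of the 124 Neurod1-high barcodes. A cluster of 178 barcodes led by Snhg11, also unnamed, had 288 (270.2 to 307). The lowest levels among clusters of neurons were 22.9 (20.4 to 25.7) and 22.3 (19.5 to 25.3) in 715 and 695 barcodes of deep-layer projection neuron-like clusters.

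The Snhg11-led cluster was the highest for 4 members. Calb1 was 83.2 CPM (73.8 to 93.6) there, above the 31.9 (28.5 to 35.7) of the CR-like cluster, and 7 of the 13 Calb1-high other neurons fell in it. Nrgn was 119 (108 to 132), close to the 110.5 (102 to 120) of the subplate neuron-like cluster, which held 23 of the 34 Nrgn-high barcodes. Hpcal1 was 87.7 (78.0 to 98.3) and Calm3 858 (827 to 890). Hpca was 69.3 (60.6 to 78.7), within the interval of the 74.1 (68.8 to 79.7) in the CR-like cluster. Ncald was highest in the subplate neuron-like cluster, at 116 (107 to 126), and lowest in the upper-layer projection neuron-like cluster, at 14.1 (11.2 to 17.7). Between the lowest and the highest cluster Calb1 differed 35.3-fold, Nrgn 35.2-fold and Calb2 28.9-fold, but Calm2 only 1.64-fold and Calm3 1.69-fold. For Nrgn and Calb2 the lowest was the radial glia or cycling-like cluster of 18 barcodes, so these 2 folds are imprecise. It held 1 Nrgn UMI (3.39 CPM, 0.086 to 18.9) and 5 Calb2 UMIs (17.0 CPM, 5.51 to 39.6). The lowest Nrgn level among clusters of neurons was 4.53 CPM (2.93 to 6.69).

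The Reln-high barcodes were not all in the CR-like cluster, and those elsewhere held part of their Nrgn and Ncald UMIs. Of 459, 381 were in it, 38 in the Snhg11-led and 18 in the Neurod1-led cluster. Nrgn was 6.18 CPM (4.70 to 7.97) in the 381 and 62.1 (45.2 to 83.4) in the 38. Ncald was 18.4 (15.8 to 21.4) in the 381 and 64.5 (49.1 to 83.2) in the 18, whose median total was 50638 UMIs. Calb2 was 481 (467 to 495) in the 381, 428 (381 to 479) in the 38 and 246 (215 to 280) in the 18. Both Calb1 and Calb2 were found after thinning in 21.1% of the CR-like cluster (17.2 to 25.5%), 11.2% of the Snhg11-led (6.9998 to 16.8%) and 10.4% of the Neurod1-led cluster (6.91 to 14.9%), and in at most 2.10% of each projection or subplate neuron-like cluster.

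**Figure D5:**
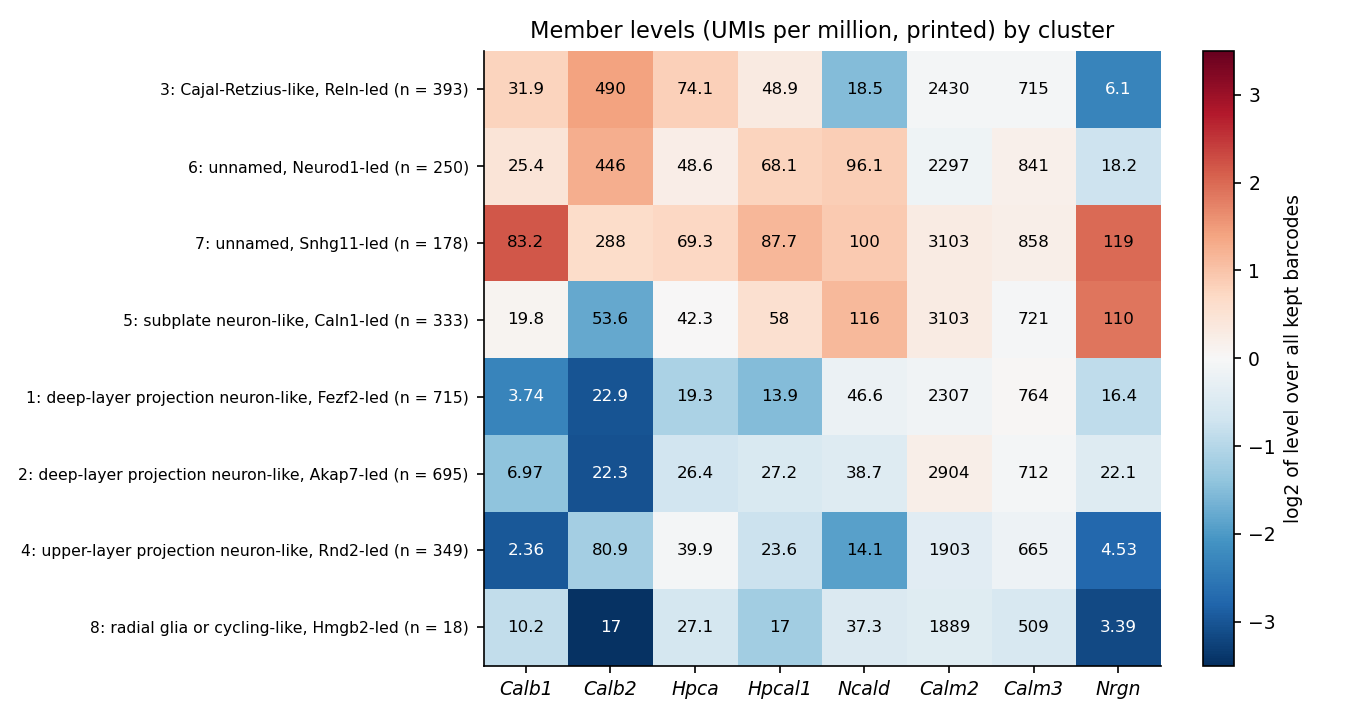
Level of each detected member (CPM, printed in the cells) in 8 clusters made without the members, Reln and Neurod1. Colour gives the log2 ratio to all kept barcodes. Calb2 is highest in the CR-like cluster (490.1), Calb1 in the Snhg11-led cluster (83.2), and the calmodulin genes vary least.

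Other genes of calcium binding and handling were counted from lists of 66 genes, of which 57 had at least 100 UMIs. In Reln-high barcodes 11 of the 57 (19.3%) were at least 2-fold higher and 9 (15.8%) at least 2-fold lower than in the other neurons, where 7.79% and 5.53% of all genes were. In Neurod1-high barcodes 2 (3.51%) were higher and 12 (21.1%) lower, against 4.58% and 6.74% of all genes. Among calmodulin-binding proteins of the kind of neurogranin, Pcp4 was higher in both, at 1066 and 538 CPM against 179, with log2 ratios of 2.57 (2.53 to 2.61) and 1.59 (1.501 to 1.67). Gap43, a calmodulin-binding protein of growing axons, was 2.0004-fold and Pcp4l1 4.48-fold higher in Reln-high barcodes. The pseudokinase Camkv was lower in both, by 3.12-fold and 3.05-fold.

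Among the relatives of hippocalcin, 2 of 7 with enough UMIs were at least 2-fold higher and 1 lower in Reln-high barcodes. The potassium channel subunits Kcnip2 (113 against 37.8 CPM) and Kcnip4 were higher, and Kcnip3 (8.85 against 27.2) was lower. In Neurod1-high barcodes 0 were higher and 3 lower: Kcnip1 at 5.67 against 32.2, Kcnip4 and Hpcal4, the last 2 from levels under 10 CPM. Of 10 other EF-hand genes, Efhd1 was higher in Reln-high barcodes (6.98 against 0.50) and Cabp1, Caln1 and Necab1 were lower. Caln1 (calneuron 1) was lower in both groups, at 14.5 and 13.4 against 54.2, and Necab3 and Efhd2 were lower in Neurod1-high barcodes.

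The calmodulin-dependent kinases and calcineurin showed few such differences. Camk2d was 2.51-fold higher and Camk4 2.18-fold lower in Reln-high barcodes, and Camk2a and Camk2d were lower in Neurod1-high barcodes. Of 7 genes for calcineurin subunits and the Rcan regulators of calcineurin, 0 passed 2-fold in either. Of 6 calcium binders of the endoplasmic reticulum, the chaperone Calr (612 against 272) and Rcn1 were higher in Reln-high barcodes. The sodium-calcium-potassium exchangers Slc24a2 and Slc24a3 were 4.81-fold and 3.42-fold higher there and the calcium pump Atp2b4 2.17-fold lower, while in Neurod1-high barcodes the pump Atp2b3 was 2.76-fold higher and the exchangers Slc8a1 and Slc8a3 lower. For Slc8a1 the interval of the log2 ratio, -3.32 to 0.57, included 0. The release channel genes Itpr1 and Ryr3 were lower in Reln-high barcodes, by 2.01-fold and 3.22-fold, and Ryr3 also in Neurod1-high barcodes, at 10.1 against 23.3 CPM.

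The genes most like each member were ranked by Pearson's r over the 2931 barcodes thinned to 10000 UMIs. Calb2 had the closest: Zbtb20 (r = 0.54), Emx2 (0.46), Nhlh2 (0.46), Pcp4 (0.44) and Reln (0.43). Calm2 was most like Tubb2a (0.40), Meg3 (0.40), Caly (0.37), Sncb (0.36) and Ndn (0.36). For the other members the highest r was 0.27, which in counts this sparse is weak. Calb1 was led by Snhg11 (0.27), Car10 (0.25), Nr2f2 (0.22), Tcf7l2 (0.21) and Skor1 (0.20), and Nrgn by Gda (0.25), Sncb (0.23), Rprml (0.22), Fxyd7 (0.21) and Caly (0.20). Hpca was led by Cryab (0.21), Syndig1l (0.20), Snhg11 (0.19), Car10 (0.19) and Fibin (0.17), Hpcal1 by Zbtb20 (0.23), Tmem132c (0.21), Col12a1 (0.21), Neurod1 (0.21) and Pcp4 (0.20), and Ncald by Sncb (0.23), Atp1b1 (0.22), Mapt (0.21), Stmn4 (0.21) and Ppp1r14c (0.20). Calm3 was most like Tmsb10 (0.20), Sepw1 (0.19), Stmn3 (0.18), Gap43 (0.17) and Crym (0.17).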

How the data were processed

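UMI counts per gene and barcode, produced by the authors with Cell Ranger 2.0.0, were taken as deposited in 1 matrix of 3000 barcodes. Analysis used Python 3.11.15 with scipy 1.17.1, scikit-learn 1.9.0 and scanpy 1.11.5. Every barcode kept had 1000 genes or more and no more than 10% mitochondrial UMIs, and 69 barcodes (2.3%) were dropped for the top Scrublet doublet scores. Totals ran from 10718 to 76690 UMIs. Levels were summed UMIs of a group divided by its total, with exact Poisson intervals. Shares had Clopper-Pearson intervals, ratios conditional binomial intervals and differences of shares square-and-add intervals, all at 95%. Detection was compared after thinning barcodes to 10000 UMIs. The 2000 most variable genes and 20 components, without the members, Reln and Neurod1, gave 8 K-means clusters, named where at least 3 listed markers were 2-fold above the rest. Named were all members, pathway genes past 2-fold with at least 100 UMIs, and the 5 genes most correlated with each member found in at least 5% of barcodes. The members, lists and cuts were chosen with earlier results of these data known. The ratio, interval and thinning steps were tested on simulated data. With 1 pooled matrix no test between groups was made.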

Additional observations from a re-analysis of the deposited data

How the results depend on the processing

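For the members 13 alternatives were run, and 1 for the share of all genes past 2-fold. Calb2 kept its direction in each that gave a ratio. Its log2 ratio of Reln-high over other neurons was 2.81 with a cut of 2 UMIs per 10000, 2.29 with a cut of 10, 3.05 with groups by clusters, 2.53 with no doublet removal, 2.99 without barcodes above 25000 UMIs, 2.81 without barcodes with Xist and Y-linked UMIs, and 2.85 as a mean of each barcode's own values. For Neurod1-high barcodes the Calb2 ratio was 3.09 and 3.81 with cuts of 2 and 10, 2.91 with clusters, 3.94 without the deep barcodes, 3.61 without Xist and Y-linked barcodes and 3.84 as a mean of barcodes. The Calb1 ratio of Reln-high barcodes passed 2-fold in several settings. It was 1.16 with a cut of 2, 1.03 with a cut of 10 and 1.20 with clusters. Without the deep barcodes it was 1.56, without Xist and Y-linked barcodes 1.09, and as a mean of barcodes 1.31. With clusters the Calb1 ratio of the Neurod1-led cluster reversed to 0.87, and with a cut of 10 the Calm3 ratio of Neurod1-high barcodes reversed to -0.053. The cause was not tested.

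With a cut of 2 the number of members at least 2-fold lower in Reln-high barcodes was 0. The number at least 2-fold higher there was 3 with a cut of 2 or 10, with clusters or without Xist and Y-linked barcodes. In Neurod1-high barcodes 4 members were higher and 2 lower at a threshold of 1.5-fold, and 1 was lower with clusters or without Xist and Y-linked barcodes. Over all genes with at least 1 UMI, in place of 100, 15.8% of genes were 2-fold higher and 17.7% lower in Reln-high barcodes (7.79% and 5.53% at 100 UMIs), and 10.4% and 27.0% in Neurod1-high barcodes (4.58% and 6.74%). The share with both Calb1 and Calb2 followed depth. In Reln-high barcodes it was 31.2% thinned to 15000 UMIs, 37.7% at full depth and 3.70% when at least 2 UMIs of each were asked for. In the other neurons these shares were 5.14%, 5.12% and 0.65%, and in Neurod1-high barcodes the full-depth share was 9.68%, the share at 2 UMIs was 0% and that of the Neurod1-led cluster 10.4%. The difference in Calb1 share with and without Calb2 was 20.6 points at 15000 UMIs and 24.3 points at full depth in Reln-high barcodes, and 5.45 points in Neurod1-high barcodes with a cut of 10. Of 108 further ratios, 84 stayed within their interval, 12 were higher, 11 lower and 1 reversed. No paired analysis was possible because the barcodes of all samples are pooled with no map to a sample. Depth limits the 7 members other than Calm2 and Calm3, since each of the 7 had no UMI in most barcodes.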
